A study of Homo sapiens with 4 samples.

Results

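SUM149 cells treated with Ricolinostat for 12 h were compared with untreated SUM149 cells, and the genes described here are those that could be measured on both arrays. SUM149 is a cell line from a triple negative inflammatory breast cancer, and Ricolinostat (ACY1215) is an inhibitor chosen for its selectivity towards HDAC6, a mainly cytoplasmic deacetylase. The untreated group and the group given 2.5 uM Ricolinostat for 12 h had 1 array each, as did the groups given it for 3 h and 6 h, whose values are set beside those of 12 h. All comparisons with untreated cells share 1 array, so agreement between times is no separate check of a change. No vehicle array was analysed here, so time in culture and treatment cannot be told apart. With 1 array a side no test between the groups was made, no difference below has a replicate check, and precision is limited by having so few arrays.

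Each array carried 2 dyes. Cy5 labelled the RNA of the sample and Cy3 a common reference, and the value of a gene is the log2 change, which is the log2 ratio of Cy5 over Cy3 at 12 h minus the same ratio in untreated cells. A gene was measured when its spot stood well above background for Cy5 and Cy3 alike on the pair of arrays, carried no outlier flag, and had Cy3 signals within 2-fold of each other. This held for 20532 of the 34755 gene symbols on the array. All changes are relative to the array's own dye normalization, under which the median gene moved by -0.03.

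HDAC inhibitors keep acetyl groups on lysines of histones and of other proteins. Inhibitors that reach the class I enzymes in the nucleus raise histone acetylation and the transcription of many silent genes, with the cell cycle inhibitor CDKN1A as the best known example. HDAC6 acts mainly on α-tubulin, HSP90 and cortactin, and it carries ubiquitinated proteins to the aggresome, so its inhibition is often followed through chaperone, autophagy and secretory stress genes.

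The labels describe the reference as a pool of SUM149 samples, yet for 1041 genes the lowest Cy3 signal over the arrays exceeded the highest Cy5 signal by 8-fold or more, 412 of them among the genes measured, so ratios are used only as changes between arrays. The median raw Cy5 signal was between 36 and 40 on the 4 arrays over a local background of 24, and between 59.1% and 63.1% of spots were well above background in Cy5. Repeated spots of 1 probe differed in the 12 h change with an SD of 0.0993 over 210 probes, which covers spotting and scanning only. Some areas of the arrays were rich in flagged spots or in spots whose well-measured Cy3 signals differed over 2-fold. They held 627 of the measured genes, 16.1% of which were called at 2-fold against 8.02% of those outside, and a gene inside one is marked as such below. The markers fixed for the identity of the cells were present. All 10 epithelial markers and 9 of 10 basal markers were well above background on both arrays, as were 8 of 10 luminal hormone receptor markers, among them ESR1, GATA3 and FOXA1. The basal factor TP63 and the luminal receptor PGR were not. The summed Cy5 signal of the luminal list was 17787 in untreated cells and 14987 at 12 h. XBP1 made up 11517 and 8414 of these sums, while AGR2 went from 199 to 877. For the basal list the sums were 261269 and 327062. Probes for 8 of 10 leukocyte, 7 of 10 fibroblast and 6 of 10 endothelial markers also passed in untreated cells, at summed Cy5 signals of 4123, 2610 and 3378 against 633995 for the epithelial list. At 12 h these 4 sums were 5524, 3279, 1806 and 886701. The leukocyte gene PTPRC was at a log2 change of 1.17, with 0.24 and -0.15 at its other probes. The endothelial gene ROBO4 was at -1.36. The highest Cy5 signal of PTPRC was 411 in untreated cells and 508 at 12 h, and that of the leukocyte gene CD14 was 1989 and 3353. The part of the leukocyte, fibroblast and endothelial markers in the results was not tested.

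At 12 h 1022 genes were at least 2-fold higher (4.98% of the genes measured) and 676 were at least 2-fold lower (3.29%). The tail of higher genes was longer, with 112 genes at least 4-fold higher and 24 at least 4-fold lower, although slightly more genes lay below 0 (52.7%) than above it (47.3%). Among 14305 protein-coding genes 6.09% were at least 2-fold higher and 3.12% lower. Among 1382 long noncoding RNAs the shares were 2.75% and 3.62%. Dim genes crossed the threshold more often, with 10.1% called among genes below the median intensity against 6.42% among those above it. Where a called gene had further measured probes, 88.9% of those 461 probes moved in the same direction and 39.9% also reached 2-fold, while 3 reached 2-fold in the opposite direction. The counts depended on the processing. With normexp correction and loess normalization of the median signals, which changes the signal used, the background correction and the normalization together, 474 genes were at least 2-fold higher and 218 lower, of which 442 and 205 were among those counted above.

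**Figure D1:**
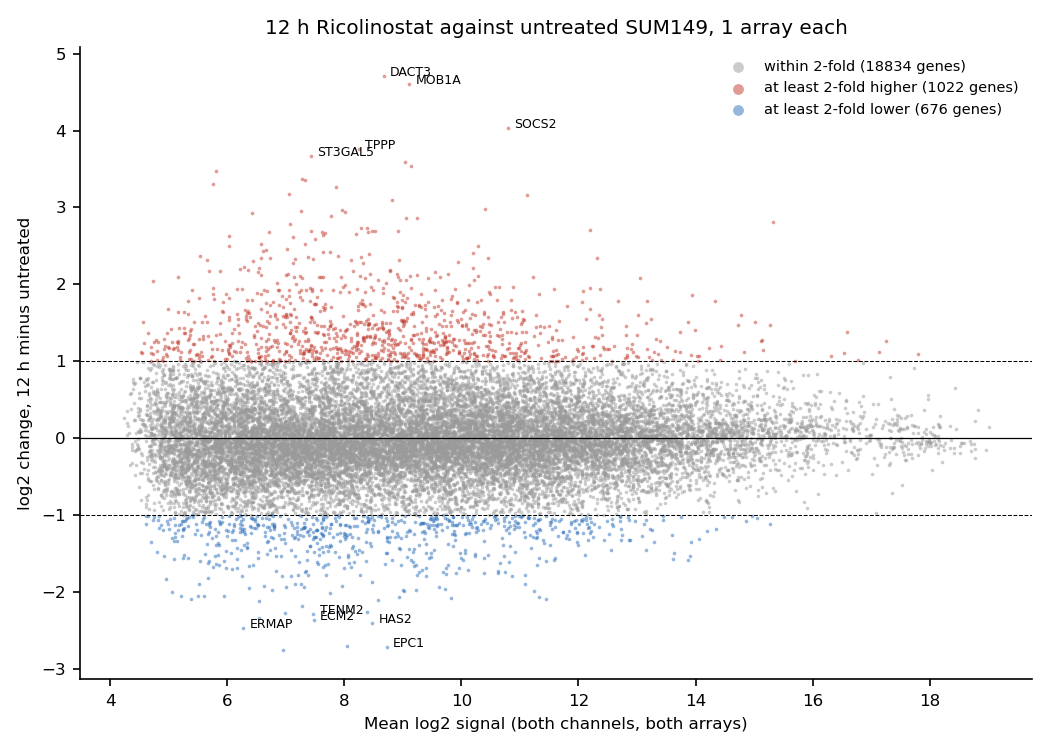
Change at 12 h (log2 ratio of sample over reference at 12 h minus untreated, y axis) against mean log2 signal over both channels and both arrays (x axis), 1 point a gene, with dashed lines at 2-fold and the 5 genes with the largest rule-selected rises and falls named. The 1022 higher genes reached further from 0 than the 676 lower genes, and both were more frequent at low signal.

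At the threshold itself, the genes just inside on the higher side were GRIA3, KIF3C and STX7 and those just outside were lnc-FTSJ2-1, ZNF230 and ABHD3. Their changes were 1.00006 to 1.00049 inside and 0.99910 to 0.99999 outside. On the lower side WFDC5, XLOC_l2_002204 and HOXC13-AS lay just inside and lnc-ITPR2-2, USE1 and C14orf180 just outside. Here the changes were -1.00034 to -1.00103 and -0.99942 to -0.99861. The values on either side of the line differed by less than the SD of repeated spots.

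The upstream stretches of 5 genes are shown because the results below return to them. DACT3 had the largest change, CDKN1A is the classical HDAC inhibitor response gene, HSPA5 and HERPUD1 led the endoplasmic reticulum chaperones, and AMIGO2 was a bright gene among the largest falls. Each stretch is the 250 bases before the start in RefSeq on GRCh38.p14, read 5′ to 3′ on the gene's strand. Capitals mark GGGCGG in DACT3 and CDKN1A, CCAAT in HSPA5 and HERPUD1 and TGACTCA in AMIGO2, on either strand, so that CCAAT on the other strand appears as ATTGG.
DACT3, chr19:46661183-46661432, minus strand: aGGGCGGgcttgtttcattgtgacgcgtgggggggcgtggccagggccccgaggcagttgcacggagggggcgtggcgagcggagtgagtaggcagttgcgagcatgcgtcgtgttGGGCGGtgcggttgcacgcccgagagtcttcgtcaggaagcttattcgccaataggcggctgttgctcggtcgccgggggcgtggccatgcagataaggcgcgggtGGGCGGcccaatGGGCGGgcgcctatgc
CDKN1A, chr6:36678464-36678713, plus strand: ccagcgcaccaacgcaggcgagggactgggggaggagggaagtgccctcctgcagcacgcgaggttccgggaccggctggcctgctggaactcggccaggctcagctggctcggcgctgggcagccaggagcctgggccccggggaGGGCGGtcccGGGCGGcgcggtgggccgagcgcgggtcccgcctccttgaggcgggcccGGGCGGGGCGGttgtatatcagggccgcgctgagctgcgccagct
HSPA5, chr9:125241344-125241593, minus strand: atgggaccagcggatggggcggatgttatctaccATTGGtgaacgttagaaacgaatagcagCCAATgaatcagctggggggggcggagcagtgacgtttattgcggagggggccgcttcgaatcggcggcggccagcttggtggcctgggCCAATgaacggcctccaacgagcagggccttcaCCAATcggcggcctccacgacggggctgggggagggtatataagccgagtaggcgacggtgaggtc
HERPUD1, chr16:56931892-56932141, plus strand: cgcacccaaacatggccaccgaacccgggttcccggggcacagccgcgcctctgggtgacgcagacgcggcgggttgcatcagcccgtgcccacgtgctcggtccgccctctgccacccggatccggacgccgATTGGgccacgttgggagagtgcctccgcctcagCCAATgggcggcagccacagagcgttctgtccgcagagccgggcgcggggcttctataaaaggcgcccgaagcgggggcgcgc
AMIGO2, chr12:47079952-47080201, minus strand: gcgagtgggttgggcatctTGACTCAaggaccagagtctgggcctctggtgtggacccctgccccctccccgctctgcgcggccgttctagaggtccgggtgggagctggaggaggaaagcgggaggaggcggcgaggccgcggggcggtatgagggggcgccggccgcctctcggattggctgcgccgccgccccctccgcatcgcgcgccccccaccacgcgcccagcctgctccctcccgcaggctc

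These stretches held 4 matches of GGGCGG in DACT3, 4 in CDKN1A, 4 of CCAAT in HSPA5, 2 in HERPUD1 and 1 of TGACTCA in AMIGO2. Promoters of 300 bases, 250 before and 50 after the start, were given for 12567 of the measured genes, and each motif was searched on both strands. The Sp1-type letters GGGCGG were in 72.4% of the 740 promoters of higher genes, 61.2% of the 387 of lower genes and 64.7% of all measured. CCAAT was in 42.7%, 34.4% and 36.3%. For the CRE letters TGACGTCA the shares were 3.92%, 0.517% and 2.93%, and for the AP-1 letters TGACTCA 3.24%, 6.72% and 3.61%. TATAAA was in 8.11%, 8.79% and 7.32%, and the heat shock type TTCNNGAA in 6.08%, 7.75% and 6.33%. Over all 27305 promoters given, GGGCGG was in 44.6%, CCAAT in 35.7%, TATAAA in 12.0%, TGACTCA in 4.92%, TGACGTCA in 1.98% and TTCNNGAA in 7.84%. CCAAT was in the promoters of 19 of 22 endoplasmic reticulum chaperone genes, a class picked for this count after its values were seen. Classes that were lower or near 0 at 12 h had high shares too. The counts were 26 of 32 for replication-dependent histones, 14 of 17 for histones with polyadenylated transcripts and 24 of 32 for mitotic genes. These are letters in a window, and no binding was measured.

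HDAC6, the target of the drug, had log2 ratios of -0.70 in untreated cells, -1.23 at 3 h, -1.24 at 6 h and -1.40 at 12 h. Every treated array was thus below the untreated one, and the change at 12 h was -0.70, with -0.52 at its other probe. This transcript value says nothing about HDAC6 activity, which the arrays do not measure.

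The largest rises among protein-coding genes included several with dim spots in untreated cells. DACT3, a Dishevelled-binding Wnt antagonist, had log2 ratios of -3.24 in untreated cells, 0.91 at 3 h, 2.38 at 6 h and 1.47 at 12 h. Its change of 4.71 at 12 h came with a Cy5 signal of 54.2 in untreated cells and 1657 at 12 h, and stayed between 2.92 and 4.84 over the alternative settings. All 3 treated arrays stood far above the untreated one, and the ratio was highest at 6 h. Because DACT3 was picked by its 12 h change from the same untreated array, this is no separate check. MOB1A, a Hippo pathway co-activator of LATS kinases, changed by 4.60, and SOCS2, an inhibitor of cytokine receptor signalling, by 4.03. Both probes lay in irregular areas. The spot of SOCS2 did not meet the conditions at 3 h, and that of MOB1A at neither 3 h nor 6 h, so no change is given there.

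TPPP, a tubulin polymerization promoting protein that can itself bind HDAC6, had log2 ratios of -1.65, 0.89, 1.86 and 2.11 at 0, 3, 6 and 12 h and changed by 3.75. ST3GAL5, the sialyltransferase that makes the ganglioside GM3, changed by 3.67 with ratios of -3.46, -0.10, 0.18 and 0.21. Both were above untreated on all 3 treated arrays. RNF182, a ubiquitin ligase, changed by 3.60, RUNDC3B by 3.48, PLEKHH2 by 3.36 and C11orf70 (now CFAP300, needed for cilia assembly) by 3.30. GRHL3, an epidermal differentiation factor, changed by 3.27 at its chosen probe and by 0.14 at its other one. SNAI3, of the Snail repressor family, changed by 3.17. Several of these values rest on dim untreated spots, and with normexp and loess they were smaller. RUNDC3B then changed by 0.90 and C11orf70 by 0.79, below 2-fold, while ST3GAL5 changed by 1.37, PLEKHH2 by 1.27 and SNAI3 by 1.40.

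The largest falls among protein-coding genes whose probes moved in 1 direction were smaller than the largest rises. EPC1, a subunit of the NuA4 acetyltransferase complex, changed by -2.71 in an irregular area. ERMAP, an erythroid membrane protein, had log2 ratios of 1.19, 0.11, -1.44 and -1.27 at 0, 3, 6 and 12 h and changed by -2.46. HAS2, a hyaluronan synthase, had ratios of -0.14, -2.87, -3.20 and -2.54 and changed by -2.40. HAS2 was already lower at 3 h by 2.73. ECM2, an extracellular matrix protein, changed by -2.37 in an irregular area, the adhesion receptor TENM2 by -2.28, KCTD15 by -2.25, PRR19 by -2.23 and the forkhead factor FOXI1 by -2.18. Among the falls with bright spots were AMIGO2, a cell adhesion protein, at -2.08 and CLMP, a junction protein, at -2.06. The Cy5 signal of AMIGO2 was 10327 in untreated cells and 2624 at 12 h, and that of CLMP 2524 and 565. MEPCE, the capping enzyme of 7SK RNA, changed by -2.07 and C20orf196 (now SHLD1, of the shieldin complex) by -2.06. The other probes of C20orf196 were at -0.60 and -0.48, short of 2-fold. With normexp and loess ERMAP changed by -0.75 and TENM2 by -0.77, below 2-fold, whereas AMIGO2 stayed between -2.08 and -2.05 over all settings.

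**Figure D2:**
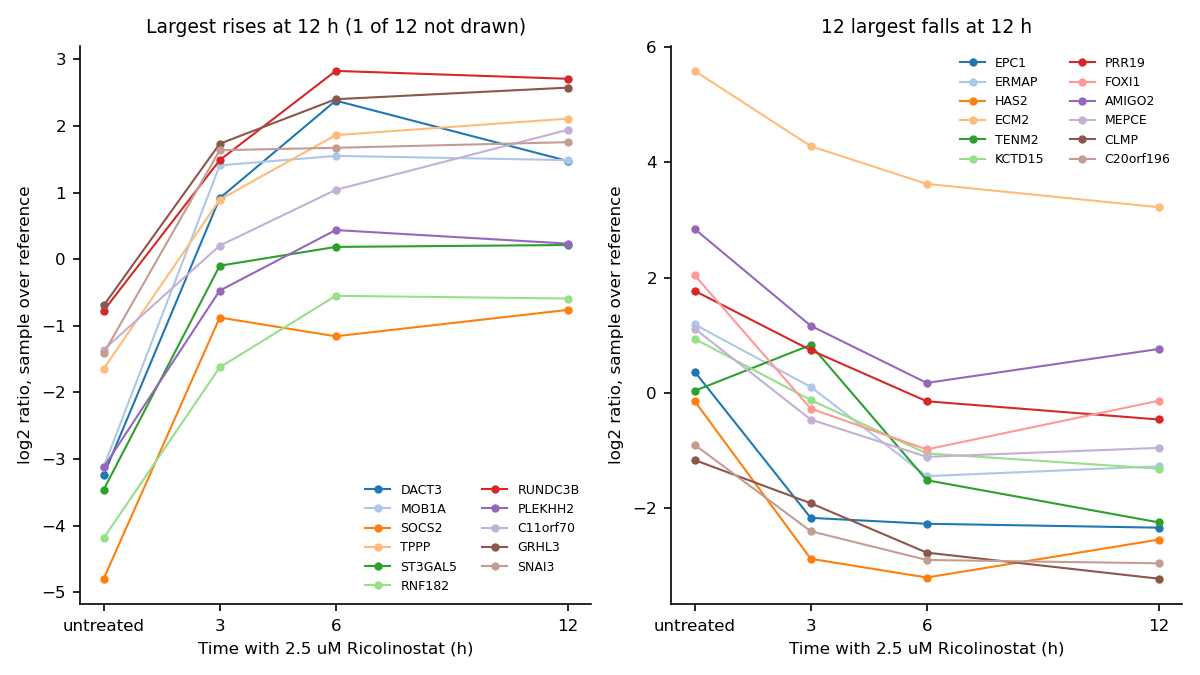
log2 ratio of sample over reference (y axis) on the untreated array and after 3, 6 and 12 h with Ricolinostat (x axis), 1 line a gene and 1 array a point, for the 12 largest rises (left, 1 of them not drawn) and falls (right) at 12 h among protein-coding genes whose probes moved in 1 direction, drawn also on arrays where the spot did not meet the conditions. DACT3 went from -3.24 to 1.47 and HAS2 from -0.14 to -2.54, while AMIGO2 went from 2.85 to 0.76.

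The class medians spread from -0.53 to 1.06 around the median of all genes. They describe 44 lists of genes, and a list of a few genes can move on 1 or 2 of its members. A gene can be in more than 1 list, so the lists are not independent. Every count of members below stands against the shares over all measured genes, which were 4.98% at least 2-fold higher, 3.29% at least 2-fold lower, 47.3% above 0 and 52.7% below 0. Where a median moved by over 1.5 times or changed sign with the processing, its lowest and highest value over the settings is given in brackets or in the text beside it.

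**Figure D3:**
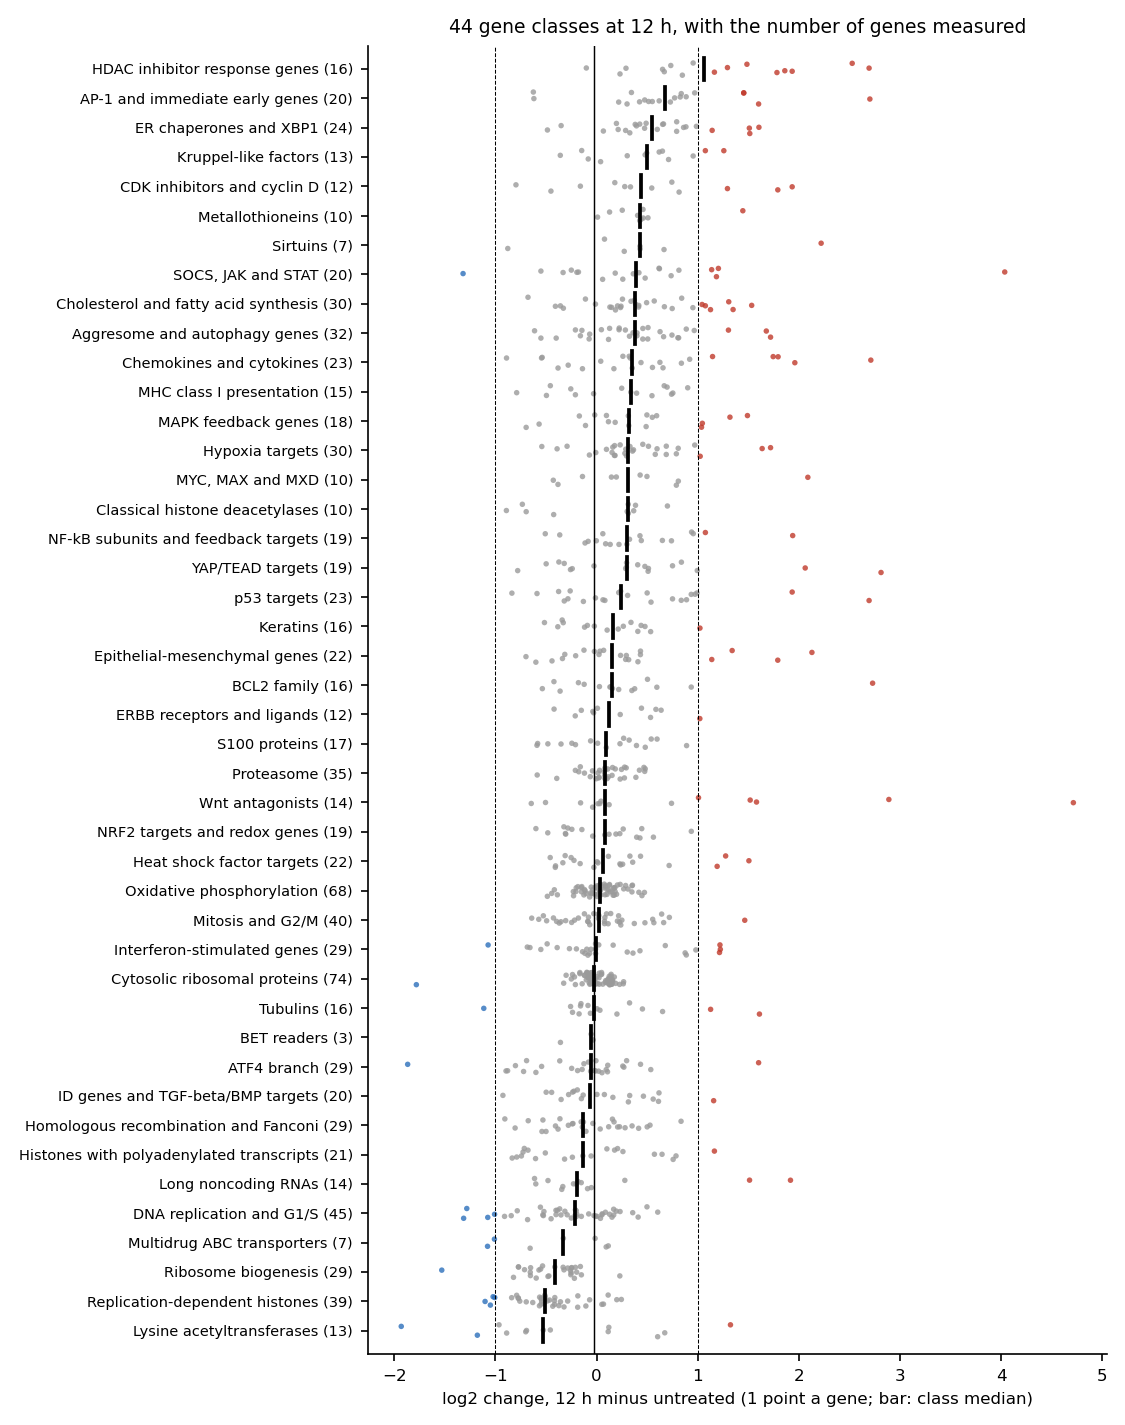
log2 change at 12 h (x axis) of every measured member (points) of 44 gene classes (y axis, number measured in brackets), with the class median as a black bar, the median of all genes as a solid line and 2-fold as dashed lines. Red points are at least 2-fold higher and blue points at least 2-fold lower. HDAC inhibitor response genes had the highest median (1.06) and lysine acetyltransferases the lowest (-0.53), the latter not under every setting.

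Genes known to respond to HDAC inhibitors had the highest median, 1.06, and the highest under every setting run. This list, like the others, was chosen with earlier results of these data known, so its rank is a description and not a test. Of 16 measured, 8 were at least 2-fold higher (background 4.98%), 0 were lower, and 15 were above 0, with DHRS2 lowest at -0.10. CDKN1A, the p21 inhibitor of cyclin dependent kinases, had log2 ratios of 0.75 in untreated cells, 1.21 at 3 h, 2.24 at 6 h and 2.68 at 12 h, a change of 1.93. The 12 h array was the highest of the 4. TP53INP1, a p53 induced stress protein, changed by 2.69, CPA4, a carboxypeptidase first found through its induction by HDAC inhibitors, by 2.53, SAT1, the rate-limiting enzyme of polyamine catabolism, by 1.86, and GLRX, a glutaredoxin, by 1.78. CPA4 was late, with changes of 0.17 at 3 h and 0.76 at 6 h. RHOB, a small GTPase, was at 1.49, CDKN1C at 1.29 and the linker histone H1F0 at 1.16. The class median was 0.45 at 3 h and 1.01 at 6 h, and 0.81 at 12 h with normexp and loess.

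Of 10 classical HDAC genes measured, 0 reached 2-fold in either direction and the median was 0.31 (0.14 to 0.33 over the settings). HDAC7 was at -0.89, with -0.22 at its other probe, HDAC10 at -0.73 and HDAC3 at 0.70. Of 7 sirtuins, the NAD-dependent deacetylases, 1 reached 2-fold, and the median was 0.43 (0.18 to 0.55 over the settings). The mitochondrial SIRT4 had ratios of -2.76, -0.75, 0.40 and -0.54 at 0, 3, 6 and 12 h and changed by 2.22. SIRT5 was at -0.88 at its chosen probe and past 2-fold lower at its other probes, with -1.03, -1.17 and -1.21.

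Lysine acetyltransferases had a median of -0.53, with 8 of 13 below 0, 2 at least 2-fold lower (background 3.29%) and 1 higher. KAT6B, the MORF enzyme, had ratios of 0.88, -0.67, -2.06 and -1.05 at 0, 3, 6 and 12 h and changed by -1.93. Its other probe was at -0.78. KAT2A (GCN5) was at -1.18 and CREBBP at -0.96. The close relative of KAT2A, KAT2B (PCAF), went the other way at 1.32. The BET readers of acetyl-lysine stayed within 2-fold, with BRD3 at -0.36 and BRD2 at -0.03.

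Replication-dependent histones, whose transcripts lack a poly(A) tail, were mostly lower. Of 39 measured, 34 were below 0 and 4 were at least 2-fold lower, with 0 higher and a median of -0.51. HIST1H1B, a linker histone, had ratios of 1.13, 0.72, 0.35 and 0.12 at 0, 3, 6 and 12 h, each array below the one before. HIST1H2AL was at -1.10, HIST1H2AG at -1.05 and HIST1H4A at -1.02, with the other probe of HIST1H2AG at 0.33. The copies of these genes are nearly identical, so a value may be shared between members. Histones with polyadenylated transcripts had a median of -0.14 (-0.41 to -0.054) over 21 genes, and H1F0 was the only one at 2-fold. H1F0 is also counted among the HDAC inhibitor response genes.

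The 16 tubulin genes had a median of -0.03 (-0.097 to 0.071). TUBB2B was at 1.61 and TUBB2A at 1.13, the latter with 0.14 at its other probe, and TUBB6 at -1.12. The α-tubulin substrate of HDAC6 is acetylated after translation, which these arrays do not show.

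Endoplasmic reticulum chaperones and other targets of the unfolded protein response stood above the median gene. Of 24 measured, 22 were above 0, 12 at least 1.5-fold higher, 4 at least 2-fold higher and 0 lower, with a median of 0.54. HSPA5 (BiP), the main luminal chaperone, had log2 ratios of -1.42 in untreated cells, -1.12 at 3 h, -0.64 at 6 h and 0.09 at 12 h. The 12 h array was the highest, and the change was 1.51. HERPUD1, which works in the removal of misfolded proteins, changed by -0.11 at 3 h, 0.32 at 6 h and 1.60 at 12 h. SEC24D, a COPII coat protein, was at 1.51 and the secreted MANF at 1.14. XBP1, the factor spliced by IRE1 in this response, was at -0.49, where a single array value does not separate spliced from unspliced transcript. With the Cy5 signal alone the class median was 0.41.

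The ATF4 branch, which holds amino acid synthesis, transport and tRNA charging genes, had a median of -0.06 (-0.20 to -0.032). Of 29 measured, 1 was at least 2-fold higher and 1 lower. ATF5 had ratios of 0.43, -0.29, -0.80 and -1.44 at 0, 3, 6 and 12 h and changed by -1.87. TRIB3, a pseudokinase target of ATF4, was at -0.90, SLC3A2, a subunit of amino acid transporters, at -0.88 and ATF4 itself at -0.19. ATF3 was at 1.60, but its 4 probes ranged from -0.01 to 1.74.

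Cytosolic chaperones driven by heat shock factor had a median of 0.06 (-0.052 to 0.17) over 22 genes. The inducible HSPA1A had ratios of 0.68, 2.05, 2.62 and 1.96 at 0, 3, 6 and 12 h, highest at 6 h, and changed by 1.28 at 12 h. HSPA1B was at 1.19 and DNAJB4 at 1.51. HSPA1A and HSPA1B are nearly identical in sequence and their values may not be separate. The mitochondrial chaperonins HSPD1 and HSPE1 were at -0.46 and -0.41. The median of this class was 0.13 at 3 h and 0.07 at 6 h, beside 0.34 and 0.43 for the endoplasmic reticulum chaperones and -0.22 and -0.28 for the ATF4 branch.

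**Figure D4:**
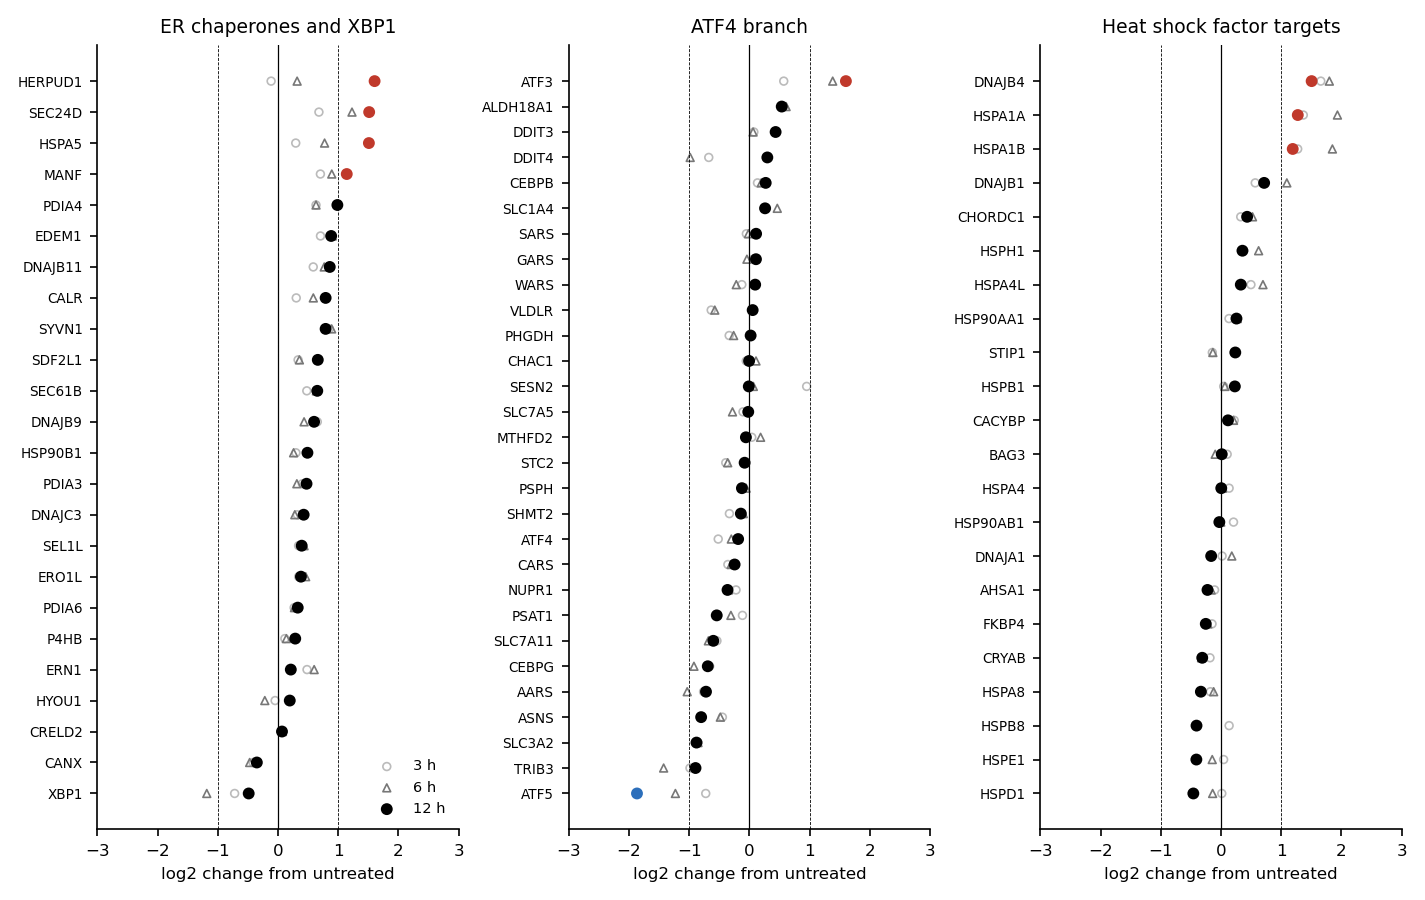
log2 change from untreated (x axis) at 3 h (open circles), 6 h (open triangles) and 12 h (filled circles, red at least 2-fold higher and blue at least 2-fold lower) of the measured genes (y axis) of 3 stress classes. HSPA5, HERPUD1, SEC24D and MANF passed 2-fold at 12 h with their highest value there, while HSPA1A, HSPA1B and DNAJB4 were highest at 6 h.

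Aggresome and autophagy genes had a median of 0.38, with 24 of 32 above 0 against 47.3% of all genes, 3 at least 2-fold higher against 4.98%, and 0 lower. BNIP3L, a mitophagy receptor, had ratios of -2.96, -1.94, -1.58 and -1.25 at 0, 3, 6 and 12 h and changed by 1.72, with 1.48 at its other probe. The phosphoinositide binding WIPI1 was at 1.68, the protease ATG4A at 1.30 and GABARAPL2 at 0.97. SQSTM1 (p62), the ubiquitin receptor of aggregates, was at -0.40. The 35 proteasome subunits stayed within 2-fold, from -0.59 for PSMD7 to 0.48 for PSME2. Genes of the NRF2 and redox class had a median of 0.08 (0.015 to 0.14), with AKR1B10 at 0.94 and SLC7A11 at -0.60, and 0 of 19 reached 2-fold. All 10 metallothioneins were above 0, where 47.3% of all genes were. MT1X, a zinc and copper binding protein, had ratios of 1.29, 1.77, 2.04 and 2.73 at 0, 3, 6 and 12 h and changed by 1.45. MT2A was at 0.51, MT1A at 0.46 and MT1B at 0.46, and cross-hybridization between these short, alike genes cannot be told apart from separate change. The metallothionein median was -0.03 at 3 h and -0.05 at 6 h.

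Chemokines and cytokines were higher at 12 h in 17 of 23 genes, with 5 at least 2-fold higher, 0 lower and a median of 0.35 (0.27 to 0.60). CCL20, the ligand of CCR6, had log2 ratios of 1.08 in untreated cells, 2.09 at 3 h, 3.01 at 6 h and 3.80 at 12 h, each array above the one before, and changed by 2.71. The neutrophil chemokine CXCL8 changed by 1.96, IL6 by 1.79 and IL11 by 1.15. CCL5 was late, with ratios of -1.82, -2.30, -2.32 and -0.08, and changed by 1.75. The neutrophil chemokine CXCL3 was at -0.89. Medians of this class were -0.15 at 3 h, over 20 of these genes, and -0.07 at 6 h, and 0.60 at 12 h with the Cy5 signal alone.

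NF-kB subunits and feedback targets had a median of 0.30 (0.17 to 0.33), with 14 of 19 above 0 and 2 at least 2-fold higher against 4.98% of all genes. BIRC3, an inhibitor of apoptosis and NF-kB target, had ratios of 1.74, 1.57, 2.65 and 3.68 at 0, 3, 6 and 12 h and changed by 1.94. TNFAIP2 was at 1.08, CYLD, a deubiquitinase that limits the pathway, at 0.96 and NFKBIZ at 0.94. The SOCS, JAK and STAT list had a median of 0.39 (0.23 to 0.42), with 4 of 20 at least 2-fold higher and 1 lower, against 4.98% and 3.29% of all genes. Beside SOCS2 these were STAT2 at 1.20, the kinase PIM1 at 1.18 and PIAS1 at 1.14, the latter in an irregular area, while STAT6, the IL4 signal transducer, was at -1.32. Interferon-stimulated genes had a median of -0.01 (-0.033 to 0.16), with OASL at 1.22, IFIT1 at 1.22 and IFI6 at 1.21 but HERC6 at -1.07 among 29 measured. MHC class I genes had a median of 0.34 (0.10 to 0.40) and 0 of 15 reached 2-fold, with the peptide transporter TAP1 at 0.90 and the peptidase ERAP1 at -0.79.

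AP-1 and other immediate early genes had a median of 0.67, with 18 of 20 above 0, 4 at least 2-fold higher and 0 lower. The orphan nuclear receptor NR4A3 had ratios of -3.77, -0.43, -0.62 and -1.07 at 0, 3, 6 and 12 h and changed by 2.70, and it was highest at 3 h. EGR2 was at 1.45 and NR4A1 at 1.45. EGR1 was at -0.63 and FOSL1 at -0.62. Kruppel-like factors had a median of 0.50, with 10 of 13 above 0, KLF2 at 1.26, KLF5 at 1.07 and KLF4 at 0.95. Of the MAPK feedback genes 4 of 18 were at least 2-fold higher. They were the phosphatases DUSP5 at 1.49 and DUSP1 at 1.32, the ETS factor ETV5 at 1.05 and SPRED2 at 1.04. Among ERBB receptors and ligands ERRFI1, a feedback inhibitor of EGFR, was at 1.02 and EGFR at -0.42, and the class median was 0.12 (-0.037 to 0.38). The other probes of EGFR were at -0.17 and 0.11.

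Among YAP and TEAD targets 2 of 19 were at least 2-fold higher, against 4.98% of all genes. The matricellular CYR61 had ratios of -0.91, 0.68, 1.98 and 1.90 at 0, 3, 6 and 12 h and changed by 2.81, and CTGF changed by 2.06. All treated arrays were above untreated for both. The class median was 0.30, and DLC1 was at 0.995, just under the line. Wnt antagonists split into a few large rises and a rest near 0, with 5 of 14 at least 2-fold higher and a median of 0.08 (-0.0039 to 0.20). Beside DACT3 these were DACT1 at 2.89, the destruction complex scaffold AXIN2 at 1.58, the DKK receptor KREMEN1 at 1.52 and DKK3 at 1.01. Other probes of AXIN2 and DKK3 were at -0.15 and -0.02. DACT1 stood at -0.79 in untreated cells and at 2.08, 2.03 and 2.10 on the treated arrays. ID genes and TGF-beta or BMP targets had a median of -0.06 (-0.13 to 0.077), with ID2, an inhibitor of helix-loop-helix factors, at 1.16 and INHBA, in an irregular area, at -0.93.

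CDK inhibitors and cyclin D genes had a median of 0.44, with 3 of 12 at least 2-fold higher and 0 lower. Of these, CDKN1A and CDKN1C are also counted among the HDAC inhibitor response genes. CDKN2D (p19) had ratios of -0.28, 1.38, 1.77 and 1.51 at 0, 3, 6 and 12 h and changed by 1.79, above untreated on every treated array. CDKN2C was at 0.82, and CCND1, the cyclin that drives G1 entry, at -0.80. Genes of DNA replication and the G1/S transition had a median of -0.21, with 30 of 45 below 0 against 52.7% of all genes, 4 at least 2-fold lower against 3.29%, and 0 higher. UNG, which removes uracil from DNA, had ratios of -0.27, -0.54, -0.92 and -1.59 and changed by -1.31. GINS3, of the replicative helicase, was at -1.28, MCM5 at -1.08 and thymidylate synthase TYMS at -1.01. TYMS was at -0.15 at 3 h and -0.34 at 6 h. The mitotic genes had a median of 0.02 (0.016 to 0.061) and ranged from -0.64 for CCNB1 to 1.46 for the centrosomal kinase NEK2, the only 1 of 40 at 2-fold. Homologous recombination and Fanconi genes had a median of -0.13 (-0.18 to -0.040) and 0 of 29 reached 2-fold, with BRCA2 at -0.91 and FANCE at 0.83.

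Ribosome biogenesis genes were lower almost throughout, with 28 of 29 below 0, where 52.7% of all genes were, and a median of -0.41. In size the changes were modest, 9 at least 1.5-fold lower and 1 at least 2-fold. UTP20, of the small subunit processome, had ratios of 0.86, 0.53, 0.13 and -0.67 at 0, 3, 6 and 12 h and changed by -1.53. Nucleolin (NCL) was at -0.82, the pseudouridine synthase DKC1 at -0.77 and POLR1C at -0.77, with -0.34 and -0.02 at the other probes of POLR1C. The class median was -0.13 at 3 h and -0.28 at 6 h. Cytosolic ribosomal proteins, in contrast, lay close to the median gene, with a median of -0.03 (-0.10 to 0.036) and a middle range of -0.08 to 0.12 over 74 genes. RPL27A alone reached 2-fold, at -1.78. The MYC, MAX and MXD list had a median of 0.31 (0.17 to 0.40), with MXD1, a MAX partner that opposes MYC, at 0.81, MYC at -0.43 and MYCL at 2.09, where MYC and MYCL lay in irregular areas. The other probes of MXD1 and MYCL were at 0.16 and 0.83.

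**Figure D5:**
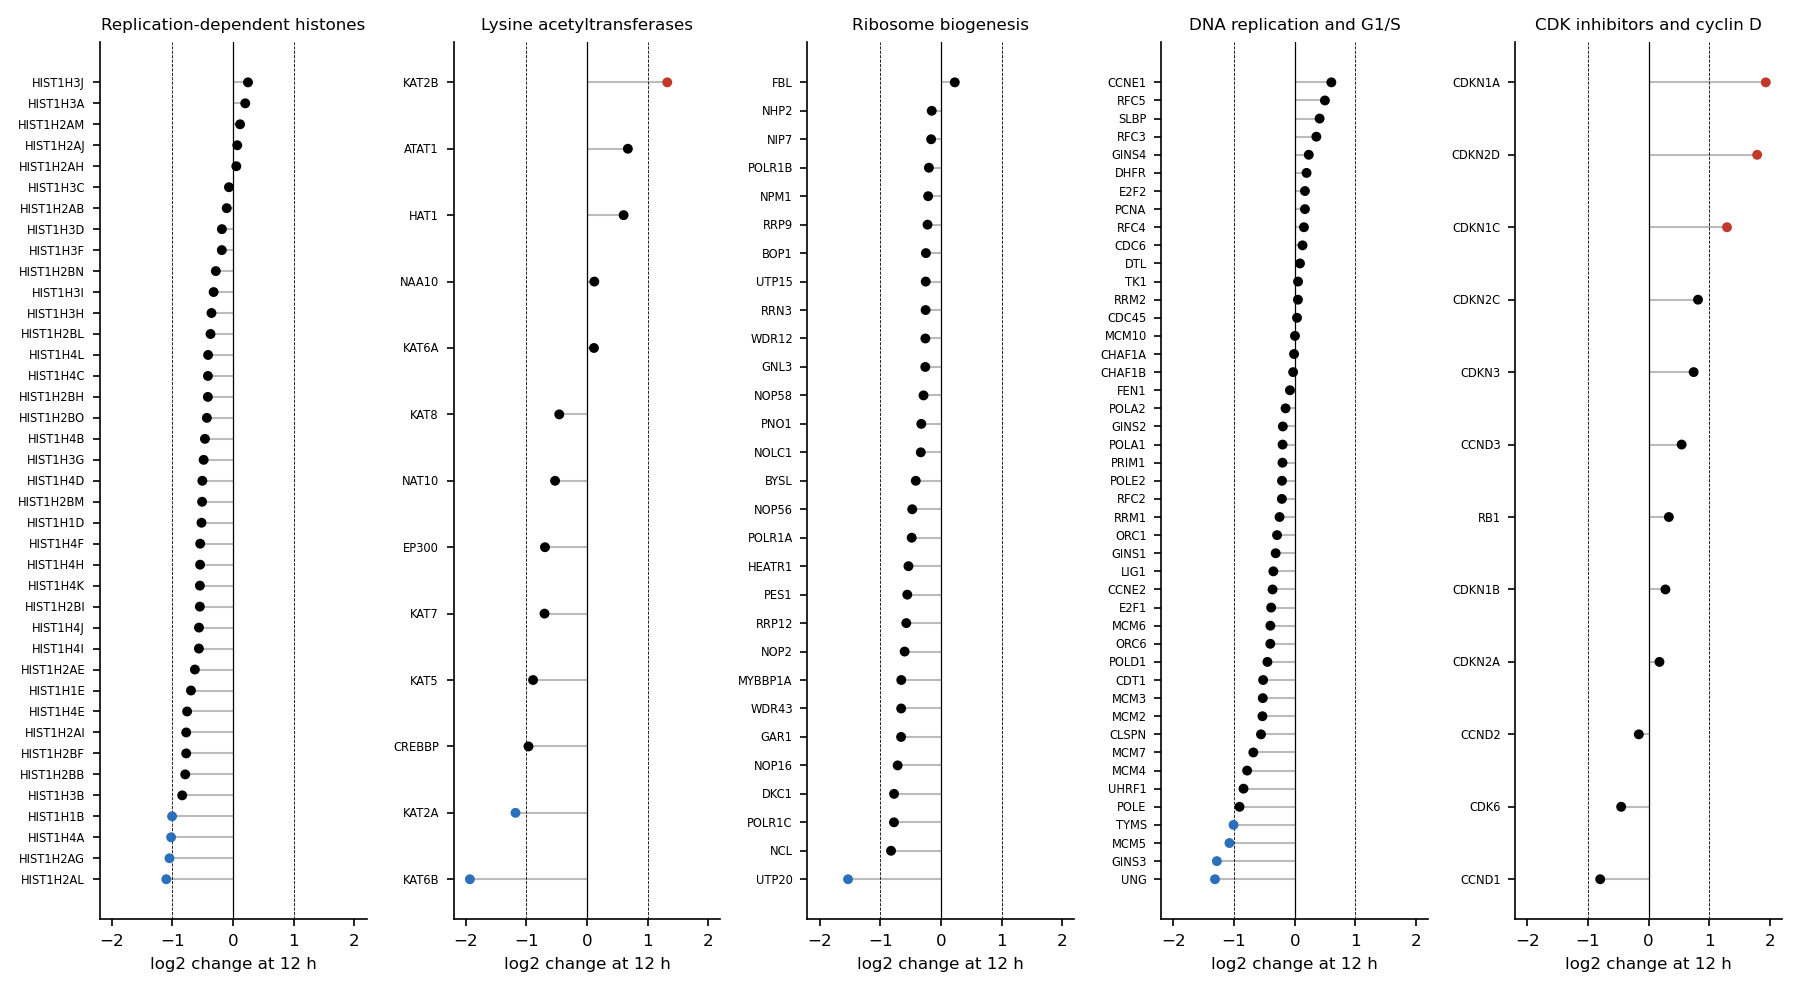
log2 change at 12 h (x axis) of the measured genes (y axis) of 5 classes, with 2-fold as dashed lines, red at least 2-fold higher and blue at least 2-fold lower. In ribosome biogenesis 28 of 29 genes and in replication-dependent histones 34 of 39 lay below 0, while CDKN1A, CDKN2D and CDKN1C passed 2-fold upwards.

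BCL2 family genes had a median of 0.15 (0.019 to 0.18). The pro-apoptotic BMF changed by 2.73 in an irregular area, PMAIP1 (NOXA) was at 0.94, the anti-apoptotic BCL2 at 0.60, also in an irregular area, and BIK at -0.54. Of 23 p53 targets 2 were at least 2-fold higher, TP53INP1 and CDKN1A, both also counted among the HDAC inhibitor response genes. RRM2B was at 0.99 and CCNG1 at 0.97. In the other direction 8 of the 23 were below 0, with TP53I3 lowest at -0.84 and at -1.05 at its other probe. The median of the p53 targets was 0.59 at 3 h, 0.80 at 6 h and 0.24 (0.23 to 0.40) at 12 h. Hypoxia targets had a median of 0.31, with 25 of 30 above 0 and BNIP3L, INSIG2 (1.64) and P4HA2 (1.02) at 2-fold. BNIP3L is also counted among the aggresome and autophagy genes. The other probes of P4HA2 were at 0.99 and 0.55. VEGFA was lowest at -0.54, with 0.09 at its other probe.

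Among epithelial-mesenchymal genes 4 of 22 were at least 2-fold higher against 4.98% of all genes. These were CDH1, CLDN1, CLDN4 and OCLN, while the junction gene CLDN7 was at 0.32 and EPCAM at -0.12. CDH1 (E-cadherin) had log2 ratios of 0.62 in untreated cells, 1.30 at 3 h, 1.67 at 6 h and 1.96 at 12 h, each array above the one before, and changed by 1.34. The tight junction genes CLDN1, CLDN4 and OCLN changed by 2.13, 1.79 and 1.14, with 0.23 at the other probe of CLDN4. Of the mesenchymal genes, TWIST1 was lowest in the list at -0.70, with -0.93 at its other probe. TWIST2 was at -0.60 and -0.97 at its probes, and CDH2 at 0.35 and 0.43. In the list 14 genes were above 0 and 8 below, with a median of 0.15 (0.15 to 0.29). Keratins had a median of 0.16 (0.066 to 0.34) over 16 genes, with KRT19 at 1.02, KRT8 at 0.53 and KRT86 at -0.52. The other probes of KRT8 were at 0.49 and -0.04. S100 proteins had a median of 0.10 (-0.059 to 0.27), with S100A14 at 0.89 and S100A7 at -0.59, and 0 of 17 reached 2-fold.

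Cholesterol and fatty acid synthesis genes had a median of 0.38, with 24 of 30 above 0, 6 at least 2-fold higher and 0 lower. HMGCS1, which makes HMG-CoA, had ratios of -2.05, -1.26, -0.70 and -0.52 at 0, 3, 6 and 12 h and changed by 1.53. MSMO1 and IDI1, later enzymes of the sterol pathway, were at 1.35 and 1.31, the sterol carrier STARD4 at 1.13 and TM7SF2 at 1.04. Oxidative phosphorylation genes lay close to the median gene, with a median of 0.03 (-0.021 to 0.061) and 0 of 68 at 2-fold. Multidrug ABC transporters had a median of -0.33 (-0.83 to -0.0078) over 7 genes, with the drug efflux pumps ABCC3 at -1.08 and ABCC2 at -1.01, and with -0.24 at the other probe of ABCC3. The well-known long noncoding RNAs had a median of -0.19 (-0.30 to -0.040) over 14, with the paraspeckle RNA NEAT1 at 1.51 and up to 1.53 at its other probes, UCA1, in an irregular area, at 1.92 and GAS5 at -0.61. The other probe of UCA1 was at 0.39.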

How the data were processed

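Gene expression was measured on 4 Agilent 2-colour arrays, 1 each for untreated SUM149 cells and for cells after 3, 6 and 12 h with 2.5 uM Ricolinostat. Per the file headers the authors extracted spot intensity with Feature Extraction, which subtracted background and normalized the dyes, and the array design was placed on hg19. The deposited files also hold a log10 ratio, which equals the ratio of the processed signals on all 32701 spots kept for the 12 h comparison, and a table of normalized log2 values by the authors, used only as an alternative because its centring is not stated (its column medians were 0.044 to 0.067). All 4 arrays share 1 slide and 1 scan, so no batch could be compared.

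Of 62976 spots an array, 33670 were well above background in both channels on both arrays, 572 of these were left out for outlier flags and 397 for Cy3 signals over 2-fold apart. Spots of 1 probe were averaged, and a gene took the value of its probe with the highest mean log2 Cy3 signal. Calls were at 2-fold, with no test. Gene types came from the RefSeq gene table, which matched 16367 genes. Named genes were HDAC6, the 12 largest rises and falls among protein-coding genes whose measured probes moved in 1 direction and whose Cy5 signal changed at least 2-fold that way, up to 5 members a class with the largest changes, members by role, and those at the threshold. A class median counted as called when it exceeded the SD of repeated spots, a rule set after values were seen. Irregular areas were taken from the share of flagged or Cy3-discordant spots in a window around each spot, by a definition picked after seeing the data. The genes and motifs of the printed sequences, and the classes drawn in figures by gene, were also picked after their values were seen, and a gene first tried for a sequence, ATF5, was dropped after showing no match. The members and lists were chosen with earlier results of these data known. A few genes that these rules name are not reported here. The steps were tested on simulated data. Python 3.11.15, numpy 2.4.6, pandas 2.3.3, matplotlib 3.10.9, R 4.3.3 and limma 3.58.1 were used.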

Additional observations from a re-analysis of the deposited data

How the results depend on the processing

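No paired analysis was possible because every group is a single array, which leaves no pairs. With 1 array a side no setting measures the spread between cultures, and signal over background limits the dim spots. Of HDAC6 and the 24 protein-coding genes picked for the largest rises and falls with probes moving in 1 direction, 0 reversed under the settings in which they were measured, while normexp and loess moved 24 of these 25 values by more than the SD of repeated spots. The causes of the shifts below were not tested.

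With normexp and loess on the median signals, a change of several steps at once, 474 genes were at least 2-fold higher and 218 lower. Class medians were then 0.45 for AP-1 genes, 0.16 for histone deacetylases, 0.81 for HDAC inhibitor response genes, 0.0618 for ID and TGF-beta genes, -0.0404 for long noncoding RNAs, 0.12 for MHC class I, -0.0078 for ABC transporters, 0.18 for NF-kB genes, 0.23 for SOCS, JAK and STAT, 0.0712 for tubulins and 0.20 for Wnt antagonists. In the table of the authors' normalized values the count of lower genes was 432, and medians were 0.54 for AP-1 genes, 0.14 for histone deacetylases, 0.89 for HDAC inhibitor response genes, 0.10 for MHC class I, 0.30 for metallothioneins, -0.14 for ABC transporters, 0.17 for NF-kB genes, 0.26 for SOCS, JAK and STAT, 0.55 for sirtuins and 0.39 for p53 targets. With the Cy5 signal alone medians were -0.20 for the ATF4 branch, 0.0190 for the BCL2 family, 0.60 for chemokines, 0.28 for cholesterol synthesis, 0.17 for histone deacetylases, 0.41 for endoplasmic reticulum chaperones, -0.0523 for heat shock genes, -0.26 for polyadenylated histones, -0.30 for long noncoding RNAs, -0.0176 for the proteasome, 0.27 for S100 proteins and 0.36 for p53 targets.

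Among genes above the median intensity 385 of 10266 genes were higher and 274 lower. The ERBB median turned to -0.0109 there, and medians were 0.33 for CDK inhibitors, 0.29 for epithelial-mesenchymal genes, 0.73 for HDAC inhibitor response genes, -0.41 for polyadenylated histones, 0.0768 for ID and TGF-beta genes, 0.16 for interferon genes, 0.49 for MAPK feedback, 0.17 for MYC, MAX and MXD, -0.83 for ABC transporters and 0.18 for sirtuins. With all irregular areas left out, counting every spot, the ERBB median turned to -0.0372, and medians were 0.53 for AP-1 genes, 0.54 for CDK inhibitors, 0.43 for endoplasmic reticulum chaperones, 1.29 for HDAC inhibitor response genes, -0.24 for polyadenylated histones, 0.34 for keratins, -0.0895 for long noncoding RNAs, -0.0593 for S100 proteins and 0.40 for p53 targets. Of 4 narrower definitions of these areas chosen after seeing the data, the one using Cy3 well above background on either array moved the medians to 0.33 for CDK inhibitors, 0.0081 for ERBB, 1.16 for HDAC inhibitor response genes, 0.0401 for ID and TGF-beta genes and 0.23 for S100 proteins, and the others moved 0 class medians. Keeping signals that were only positive and significant gave 1608 genes higher and 1241 lower and an ERBB median of 0.0081, which was also its value with Cy3 within 1.5-fold. The ERBB median was 0.38 with the mean over probes. With outlier flags kept, medians were 0.33 for CDK inhibitors and 0.17 for heat shock genes. At 1.5-fold 2663 genes were higher and 2335 lower, and at 4-fold 112 and 24. Centring on the median gene and dropping the Cy3 condition moved 0 class medians. Opposite calls were 2 genes with all irregular areas left out, 1 with positive and significant signals, 1 under each narrower definition and 0 elsewhere.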

Other observations

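Genes whose Cy5 signal was well above background on 1 array only have a bound and no ratio. Of 853 genes detected only at 12 h, 358 were at least 2-fold higher by that bound, 180 of them protein-coding. Of 1025 detected only in untreated cells, 136 were at least 2-fold lower at 12 h, 30 of them protein-coding. The bound sets the bright array's Cy5 signal against the lowest signal well above background on the other, or against the spot's own where that was higher, and genes in irregular areas are left out. Cy5 signals at 12 h were first scaled by the median shift between the arrays, and the Cy3 signals had to meet no condition of strength or agreement. A gene with several such probes took the largest bound. By it DAO, a D-amino acid oxidase, was at least 47.7-fold higher at 12 h, the matricellular SMOC2 at least 46.7-fold, CSTL1 at least 24.1-fold, EGFLAM at least 18.3-fold, C1QTNF7 at least 16.1-fold and the receptor kinase KIT at least 15.4-fold. Among class members the Kruppel-like factor KLF15 was at least 3.39-fold, the immediate early gene EGR3 at least 2.95-fold and the Wnt antagonist SFRP2 at least 2.79-fold higher. Detected only in untreated cells, C2orf54 was at least 7.38-fold lower at 12 h, CATSPER3, a sperm calcium channel subunit, at least 5.80-fold, the helix-loop-helix factor TFAP4 at least 4.95-fold and LTBP2, which binds the extracellular matrix, at least 2.67-fold. These are values of single spots on 1 array a side.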
